A study of Mus musculus with 8 samples.

Results

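The mouse mitochondrial genome supplies 6 protein-coding genes to the last complexes of the respiratory chain, and these 6 genes were taken by name from the 22430 genes of the count table: mt-Cytb for complex III, mt-Co1, mt-Co2 and mt-Co3 for complex IV, and mt-Atp6 and mt-Atp8 for complex V. Each gene is called an mRNA below, although mt-Atp6 and mt-Atp8 are known to share 1 mature mRNA. The RNA came from brain tissue, labelled whole brain and dissected as whole hemispheres in the study's methods. It was taken from 8 male C57Bl/6JRj mice, 4 young-adult (6m, 6 months old) and 4 aged (24m, 24 months old), with no mutation or treatment named for either group, and each mouse gave 1 library. Native RNA was read on Oxford Nanopore MinION flow cells by the direct RNA protocol of the study's methods, whereas the labels also name a directional polyA+ kit (NEBNext Ultra II). The single comparison of the design asked how mRNA levels in the brain differ between the ages. All 13 protein-coding genes of the mitochondrial genome were present in the table. They were the only genes of that genome found there, so its rRNAs and tRNAs could not be analysed.

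Complex III passes electrons from ubiquinol to cytochrome c, complex IV passes them on to oxygen, both pump protons across the inner mitochondrial membrane, and complex V lets the protons flow back to make ATP. Each of these complexes mixes subunits made inside the mitochondrion with many more that are encoded in the nucleus and imported. The mitochondrial mRNAs are cut from long transcripts, mostly at the tRNAs that lie between them, and receive short poly(A) tails, and neurons depend heavily on the ATP that results.

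The 3′ ends of the 6 mRNAs are shown because several of them carry no whole stop codon in the DNA and because a read of native polyadenylated RNA begins at this end. All lie on the plus strand of chromosome M (GENCODE annotation of GRCm39). Each line gives the last 30 bases of the gene, 5′ to 3′, with the stop codon, or the part of it that is encoded, in capitals.
mt-Cytb, chrM:15259-15288: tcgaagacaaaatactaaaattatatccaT
mt-Co1, chrM:6843-6872: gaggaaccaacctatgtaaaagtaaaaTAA
mt-Co2, chrM:7667-7696: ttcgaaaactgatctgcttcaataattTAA
mt-Co3, chrM:9361-9390: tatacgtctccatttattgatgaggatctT
mt-Atp6, chrM:8578-8607: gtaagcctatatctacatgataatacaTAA
mt-Atp8, chrM:7940-7969: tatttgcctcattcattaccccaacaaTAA
In mt-Cytb and mt-Co3 only 1 base of the stop codon, a T, is encoded, and the poly(A) tail is known to complete it; the other 4 end in a whole TAA.

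Both reading frames of the ATP synthase mRNA overlap, and that of mt-Co3 follows without a tRNA in between. The first line below is where the start codon of mt-Atp6 (capitals) lies inside mt-Atp8, and the second is where the start codon of mt-Co3 (capitals) shares its first base with the end of mt-Atp6.
mt-Atp6 start within mt-Atp8, chrM:7927-7956: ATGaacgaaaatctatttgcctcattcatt
mt-Atp6 and mt-Co3 junction, chrM:8592-8621: acatgataatacataATGacccaccaaact
The genes mt-Atp8 (ENSMUSG00000064356, 7766 to 7969, 204 bases) and mt-Atp6 (ENSMUSG00000064357, 7927 to 8607, 681 bases) share 43 bases and are known to stay together on 1 mature mRNA. A long read of that mRNA therefore covers both genes, and how such reads were assigned is not given in the sources used here. The other genes are mt-Co1 (ENSMUSG00000064351, 5328 to 6872, 1545 bases), mt-Co2 (ENSMUSG00000064354, 7013 to 7696, 684 bases), mt-Co3 (ENSMUSG00000064358, 8607 to 9390, 784 bases) and mt-Cytb (ENSMUSG00000064370, 14145 to 15288, 1144 bases). None has an intron, and the end of mt-Co1 overlaps a tRNA gene of the other strand, mt-Ts1, by 3 bases.

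The nuclear genome holds old copies of mitochondrial DNA, which matters for where reads could map. A search of GRCm39 found copies on chromosome 1, between 24652269 and 24654646, that match mt-Co2, mt-Co3, mt-Atp6 and mt-Atp8 at 100% of their bases over their full length. Reads of these 4 mRNAs cannot be told by sequence from the copy, whose annotated genes are not in the table. For mt-Co1 the best full-length copy, on chromosome 2 (22478115 to 22479659, within Myo3a), matched 97.605% of the bases. A partial copy of mt-Co1 on chromosome 1 matched 99.793% of the bases over 31.262% of the gene, so some of its reads may be hard to tell apart too. For mt-Cytb no nuclear copy reached 95% identity over 50% of the gene.

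The libraries held 573152 to 843706 gene counts at 6m and 660398 to 1255424 at 24m. Levels are given below as CPM, which are counts divided by the library's total (in units of 1e6 counts) after scaling by edgeR's TMM factors (0.958 to 1.06). A gene was called changed, with the thresholds of the study's methods, at an adjusted p of at most 0.05 and a log2FC (24m against 6m) of at least 0.58 in size, and "fell" or "rose" is used for an adjusted p of at most 0.05 alone. Of 9375 genes tested, 14.5% were called changed (4.17% lower and 10.3% higher), and 21.7% passed the adjusted p alone (9.42% fell). By raw counts mt-Co3 was the most abundant gene and mt-Co1 the next in every one of the 8 libraries, mt-Co2 and mt-Atp6 held ranks 3 to 5, mt-Atp8 ranks 6 to 16 and mt-Cytb ranks 6 to 15. Counting error was therefore small for the 6 mRNAs, whose lowest count in any library was 2120, and n = 4 mice per age limited the precision.

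The 3 mRNAs of complex IV and that of complex III fell in the aged brain, by 25.8% to 36.0%, while neither mRNA of complex V passed the test. In all, 4 of the 6 fell, against 9.42% of all genes tested (21.7% in both directions), and 1 of the 6 (mt-Co2) was also past the fold change minimum and so called changed, against 4.17% called lower among all genes. Their median log2FC was -0.44, that of all tested genes was -0.003, and that of the 116 genes with a mean count of at least 1000, these 6 among them, was -0.26. In bulk tissue, fewer cells of a type and less RNA per cell cannot be told apart.

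The core of cytochrome c oxidase, complex IV, is built from mt-Co1, which binds the haem and copper site where oxygen is reduced, mt-Co2, which takes electrons from cytochrome c, and mt-Co3, which lies beside them. For mt-Co2, replicates 1 to 4 had 11751, 12469, 14284 and 9380.3 CPM at 6m, and 6496, 8397, 7379 and 8363 CPM at 24m. Every aged library lay below every young-adult library, and the closest pair was young-adult replicate 4 and aged replicate 2. The mean fell, from 11971 ± 2030 CPM at 6m to 7659 ± 908 CPM at 24m (SD, n = 4 each), with a log2FC of -0.64 (SE 0.114; adjusted p = 0.00027, by the edgeR quasi-likelihood test and Benjamini-Hochberg over all tested genes). The call rests on a log2FC near the minimum: without young-adult replicate 3 it was -0.54 and without aged replicate 1 it was -0.56, neither of which was called, with the adjusted p still at most 0.05. Nor was it called at the -0.54 that library sizes alone gave or at the -0.26 of DESeq2 on quantile-normalized counts.

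For mt-Co1 the 6m libraries had 23603, 20062, 22566 and 19774 CPM, and the 24m libraries 12889, 16627, 14052 and 13985 CPM. The ages did not overlap, and again young-adult replicate 4 and aged replicate 2 were the closest pair. The mean fell, from 21501 ± 1880.4 CPM at 6m to 14388.5 ± 1585 CPM at 24m (SD, n = 4 each), with a log2FC of -0.579 (SE 0.103; edgeR adjusted p = 0.000287), just under the fold change minimum, so mt-Co1 and mt-Co2 stand on different sides of it with nearly equal values.

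The most abundant mRNA of all, mt-Co3, had 30800.1, 30169.6, 31545 and 29241 CPM at 6m and 20132, 21589.7, 23202 and 25462 CPM at 24m. The young-adult libraries lay close together, the aged ones spread more widely, and the ages did not overlap. The mean fell, from 30439 ± 977 CPM at 6m to 22596 ± 2285 CPM at 24m (SD, n = 4 each), with a log2FC of -0.43 (SE 0.101; edgeR adjusted p = 0.00345). This made 3 of the 6 mRNAs, all of complex IV, with every aged library below every young-adult library, which held for 9.96% of all tested genes (21.1% in either direction).

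Cytochrome b, the product of mt-Cytb, holds both haem b groups of complex III and is its only subunit made in the mitochondrion. It had 5727, 6250.9, 6904 and 4357 CPM at 6m and 3231, 4863, 3989 and 5007 CPM at 24m. Young-adult replicate 4 lay below aged replicates 2 and 4, so the ages overlapped. The mean fell, from 5809.8 ± 1081 CPM at 6m to 4272 ± 827.1 CPM at 24m (SD, n = 4 each), with a log2FC of -0.44 (SE 0.127; edgeR adjusted p = 0.0145). This was the least secure of the 4: without young-adult replicate 2 the adjusted p was 0.0508, without young-adult replicate 3 it was 0.0845 and without aged replicate 3 it was 0.0502, and it was 0.117 with DESeq2 on the same counts (over all alternatives, a log2FC of -0.55 to -0.27).

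Both mitochondrial mRNAs of ATP synthase code for its membrane part: the product of mt-Atp6 forms the path of the protons against the rotating ring, and that of mt-Atp8 is a small protein of the stalk that holds the enzyme still. For mt-Atp6 the libraries had 10045, 10269, 11042 and 8300.4 CPM at 6m and 7085, 8798, 8189 and 10422 CPM at 24m, and the ages overlapped. Young-adult libraries averaged 9914 ± 1158 CPM and aged ones 8623 ± 1393 CPM (SD, n = 4 each), with a log2FC of -0.20 (SE 0.111; edgeR adjusted p = 0.205).

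The mt-Atp8 libraries had 5039, 5455, 5639 and 3697 CPM at 6m and 4826, 5838, 5561 and 6618 CPM at 24m. Here the aged mean was the higher one, 5711 ± 740.4 against 4958 ± 877 CPM, each a mean ± SD with n = 4. The ages overlapped, and the test was not passed (log2FC 0.21, SE 0.114; edgeR adjusted p = 0.21). Aged replicate 1 was the lowest aged library for all 6 mRNAs. Without it, mt-Atp8 passed the test (log2FC 0.29, edgeR adjusted p = 0.0141; over the alternatives that kept both genes apart, a log2FC of 0.10 to 0.44). With the counts of mt-Atp8 and mt-Atp6 added up as those of 1 mRNA, a sum made after their values were seen, the sign turned and the log2FC was -0.05 (SE 0.113, edgeR adjusted p = 0.784). A read over both genes may have entered both counts, so the sum need not count each mRNA once.

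**Figure D1:**
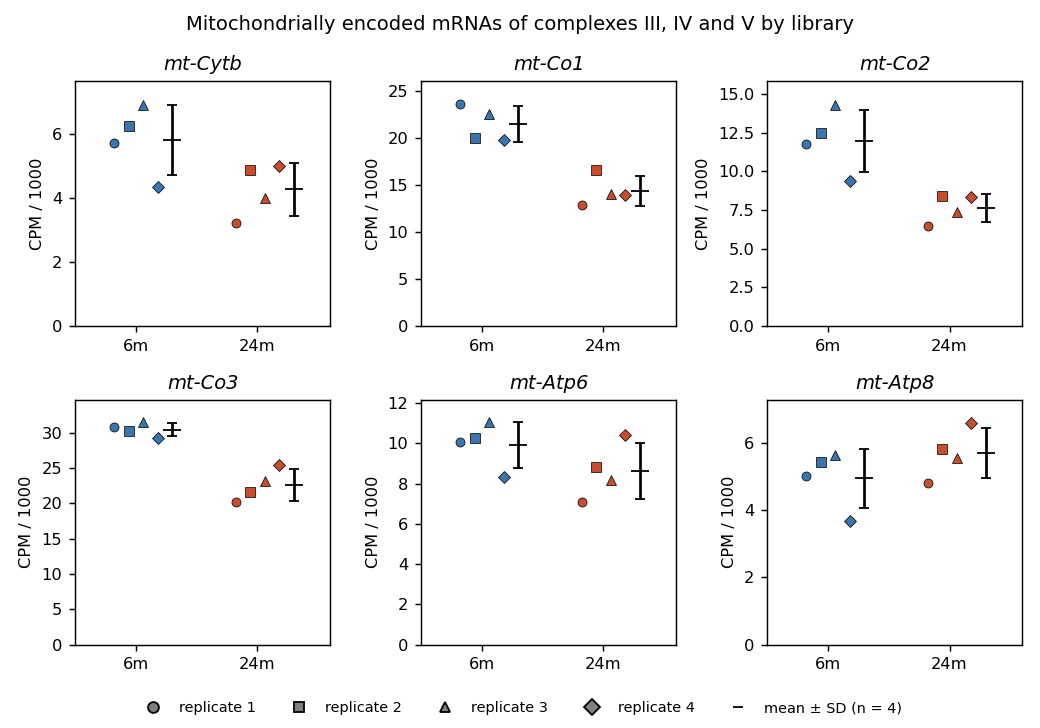
Each panel plots 1 mRNA: the y axis is its level in CPM divided by 1000 (TMM-scaled, from 0), the x axis the age, each marker 1 library with its replicate number by shape, and the bars the mean ± SD (n = 4). The aged libraries lie below all young-adult ones for mt-Co1, mt-Co2 and mt-Co3, and overlap with them for mt-Cytb, mt-Atp6 and mt-Atp8.

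Levels of different mRNAs were compared per kilobase of gene length. At 6m the order by mean CPM per kilobase was mt-Co3 (38825), mt-Atp8 (24302), mt-Co2 (17502), mt-Atp6 (14558), mt-Co1 (13917) and mt-Cytb (5079). The ranges of mt-Atp8 and mt-Co2, of mt-Co2 and mt-Atp6 and of mt-Atp6 and mt-Co1 overlapped, and mt-Atp6 lay above mt-Co1 in only 2 of the 4 libraries, so that pair had no fixed order. At 24m the order was mt-Co3 (28822), mt-Atp8 (27994), mt-Atp6 (12663), mt-Co2 (11197), mt-Co1 (9313) and mt-Cytb (3735). The values of mt-Co3 and mt-Atp8 now overlapped, with mt-Co3 the higher in 3 of 4 aged libraries, and mt-Atp6 stood above mt-Co2 in all 4 aged libraries, where mt-Co2 had stood above mt-Atp6 in all 4 young-adult ones. The ranges of mt-Atp6 and mt-Co2 and of mt-Co2 and mt-Co1 overlapped at 24m too. The length of mt-Atp8 is that of its gene, whereas the mRNA that carries it also carries mt-Atp6, so its level per kilobase depends on how the reads were assigned. In direct RNA sequencing each read is one RNA, so counts need not grow with length, and by counts the order differs: mt-Co1 stood above mt-Atp8 in every library.

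All 6 mRNAs together took 8.37, 8.17, 8.81 and 7.27% of the gene counts at 6m, and 5.43, 7.04, 6.56 and 7.25% at 24m. This share needs no scaling between libraries. The ages lay close to each other, with young-adult replicate 4 at 7.269% and aged replicate 4 at 7.254%. The mean share went from 8.16 ± 0.65% to 6.57 ± 0.814% (SD, n = 4 each; exact two-sided permutation test p = 0.029, the smallest that 4 against 4 libraries can give), a difference of -1.59 percentage points. The 7 complex I mRNAs of the same genome took 1.81 ± 0.299% and 1.42 ± 0.284% (exact permutation p = 0.114), and the 6 mRNAs made up 82.0 ± 1.47% of all mitochondrial mRNA counts at 6m and 82.4 ± 1.23% at 24m (exact permutation p = 0.686).

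Within the pool of 13 mitochondrial mRNAs, the share of mt-Atp8 was higher and that of mt-Co2 lower in every aged library. For mt-Atp8 the shares were 4.77, 5.21, 4.95 and 4.15% at 6m and 7.40, 7.20, 7.39 and 7.69% at 24m, which left a wide gap between the ages. Its mean went from 4.77 ± 0.452% to 7.42 ± 0.201% (SD, n = 4 each; exact permutation p = 0.029, 0.0571 after Benjamini-Hochberg adjustment over the 6 mRNAs). Reads of native RNA begin at the 3′ end, and on the shared mRNA mt-Atp6 lies nearer to it than mt-Atp8. Read length and RNA integrity were not compared between the ages, and their part in these shares was not tested.

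For mt-Atp6 the shares were 9.52, 9.80, 9.69 and 9.31% at 6m and 10.9, 10.9, 10.9 and 12.1% at 24m. These did not overlap either (means 9.58 ± 0.216% and 11.2 ± 0.621%, SD, n = 4 each; exact permutation p = 0.029, adjusted 0.0571). In the other direction, mt-Co2 held 11.1, 11.9, 12.5 and 10.5% at 6m and 9.96, 10.4, 9.80 and 9.72% at 24m, without overlap (means 11.5 ± 0.882% and 9.96 ± 0.285%, SD, n = 4 each; exact permutation p = 0.029, adjusted 0.0571). All 3 were at the smallest p that this design allows, and none was below 0.05 after adjustment. By CPM, which is another measure, the ages did not overlap for 21.1% of all tested genes. Pool shares of the single complex I mRNAs were not computed.

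The shares of the remaining mRNAs overlapped between the ages. For mt-Co1 the shares ran from 19.2 to 22.4% at 6m and from 16.2 to 20.5% at 24m (exact permutation p = 0.171, adjusted 0.257). Those of mt-Co3 averaged 29.6 ± 2.21% and 29.5 ± 1.99% (adjusted exact p = 0.914) and those of mt-Cytb 5.59 ± 0.543% and 5.52 ± 0.477% (adjusted exact p = 0.914). Shares of one pool add up to a whole, so a gain of one mRNA lowers the others.

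**Figure D2:**
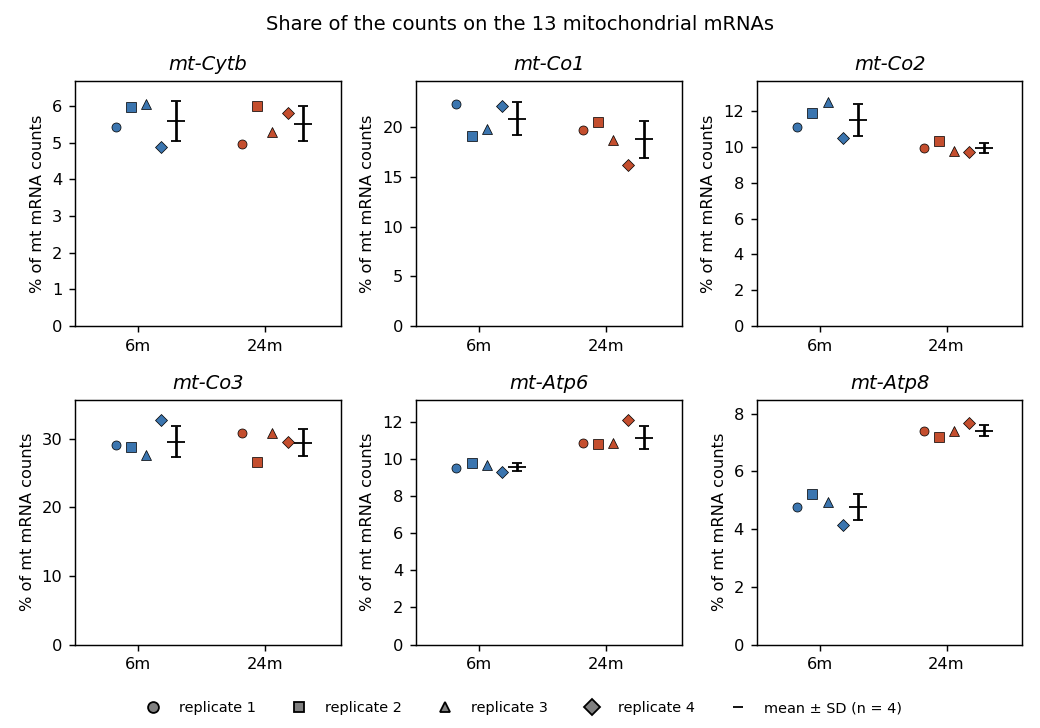
Each panel plots 1 mRNA: the y axis is its share, in percent from 0, of the counts on the 13 mitochondrial mRNAs, the x axis the age, each marker 1 library, and the bars the mean ± SD (n = 4). The shares of mt-Atp8 (4.77 to 7.42% on average) and mt-Atp6 are higher in all aged libraries, that of mt-Co2 is lower in all of them, and the other 3 overlap.

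Ratios of the counts of 2 mRNAs within a library are free of both the scaling and the sum of the pool. They are not free of differences in read length or RNA integrity, which were not compared between the ages. Of the 15 pairs of the 6 mRNAs, 8 had ratios that did not overlap between the ages, beside 23% of the 6670 pairs among the 116 genes with a mean count of at least 1000. These ratios were computed after the shares were seen, and all 8 involve mt-Atp8 or mt-Atp6 (exact permutation p = 0.029 each, 0.0536 adjusted over the 15 pairs). For mt-Co2 over mt-Atp8 the ratios were 2.33, 2.29, 2.53 and 2.54 at 6m and 1.35, 1.44, 1.33 and 1.26 at 24m. This was the pair that moved furthest, with a difference of -0.85 in the mean log2 ratio.

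The genes mt-Co2 and mt-Atp6 are of near-equal length (684 and 681 bases). They are not alike in reading, since mt-Atp6 shares 43 bases with mt-Atp8 and how such reads were assigned is not known. A read over both genes may have entered 1 count or both. The ratio of mt-Co2 to mt-Atp6 was 1.17, 1.21, 1.29 and 1.13 at 6m and 0.917, 0.955, 0.901 and 0.802 at 24m (difference in mean log2 ratio -0.43). So mt-Co2 had the more counts in each young-adult library and mt-Atp6 in each aged one. Between mt-Atp6 and mt-Atp8, which share 1 mRNA, the ratio was 1.99, 1.88, 1.96 and 2.25 at 6m and 1.47, 1.51, 1.47 and 1.57 at 24m (difference in mean log2 ratio -0.42). The counts of these overlapping genes thus did not keep 1 ratio between the ages.

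Of the 3 complex IV mRNAs, no pair of ratios separated the ages. The mt-Co1 over mt-Co2 ratio, for example, ran from 1.58 to 2.11 at 6m and from 1.67 to 1.98 at 24m (exact permutation p = 0.8, adjusted 0.857), with a difference in mean log2 ratio of 0.05. That of mt-Cytb over mt-Co3 was 0.188 at 6m and 0.187 at 24m as geometric means (adjusted exact p = 0.971).

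**Figure D3:**
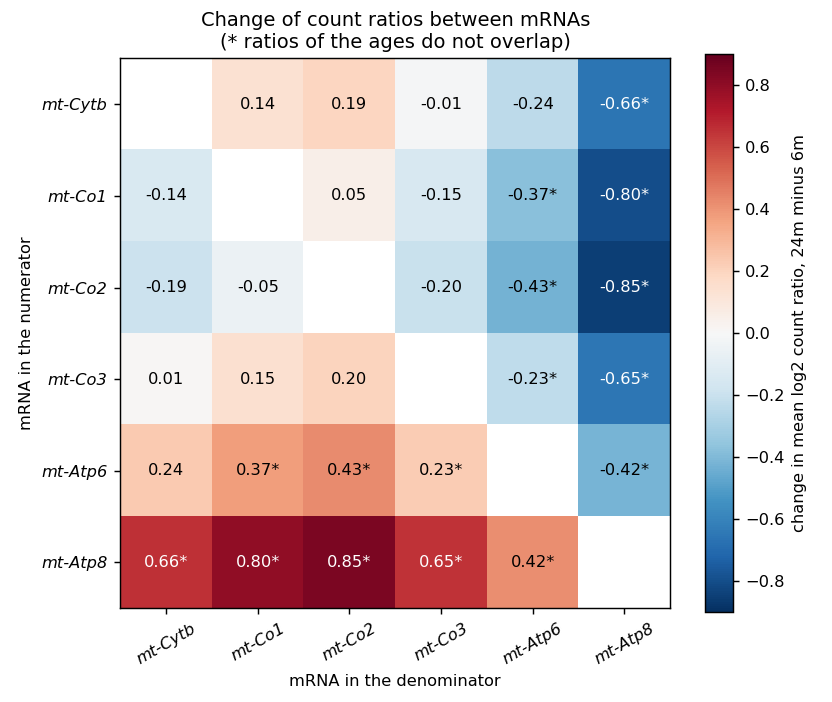
The grid gives, for each mRNA in a row over each mRNA in a column, the difference (24m minus 6m) in the mean log2 ratio of counts within a library (n = 4 each), in numbers and as colour, and a star where the ratios of the ages do not overlap. The row and the column of mt-Atp8 hold the widest differences, up to -0.85 for mt-Co2 over mt-Atp8, and the pairs among mt-Co1, mt-Co2, mt-Co3 and mt-Cytb have no star.

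The mitochondrial mRNAs of each complex, summed, were then set against the summed nuclear mRNAs of that complex, as counts in the same library. In complex IV the 3 mitochondrial mRNAs had 4.04, 3.77, 4.18 and 3.56 times the summed counts of 16 nuclear subunits at 6m, and 2.73, 3.50, 3.31 and 3.37 times at 24m. The ages did not overlap, though young-adult replicate 4 and aged replicate 2 were close (difference in mean log2 ratio -0.27; exact permutation p = 0.029, 0.0857 adjusted over the 3 complexes). In complex III the ratio of mt-Cytb to 9 nuclear subunits was 0.92 at 6m and 0.859 at 24m as geometric means (exact permutation p = 0.686), and in complex V that of mt-Atp6 and mt-Atp8 to 18 nuclear subunits was 0.861 and 0.991 (exact permutation p = 0.314). Both of these overlapped widely. The complex V sum may hold reads over mt-Atp6 and mt-Atp8 in both genes, since how such reads were assigned is not known.

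**Figure D4:**
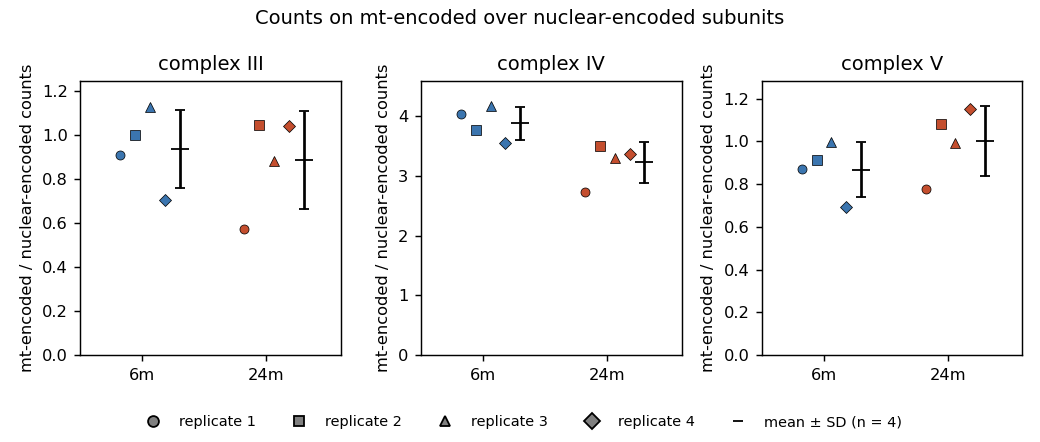
For complexes III, IV and V, the y axis is the count of the mitochondrially encoded mRNAs divided by that of the nuclear-encoded subunits in the same library (linear, from 0), the x axis the age, each marker 1 library, and the bars the arithmetic mean ± SD (n = 4). In complex IV the aged libraries (2.73 to 3.50) lie below the young-adult ones (3.56 to 4.18), and in complexes III and V the ages overlap.

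The nuclear subunits themselves were lower in sum as well. Their summed levels went from 6229 ± 66.7 to 4917 ± 507.5 CPM in complex III, from 16452 ± 134.5 to 13862 ± 558.4 CPM in complex IV and from 17148 ± 298.8 to 14364 ± 822.7 CPM in complex V (SD, n = 4 each), with no overlap between the ages in any of the 3 sums. Of the complex III subunits 6 of 9 fell (median log2FC -0.34), led in abundance by Uqcrh (log2FC -0.41, edgeR adjusted p = 0.00162) and Uqcr11 (log2FC -0.44, edgeR adjusted p = 0.00341). Of those of complex IV 7 of 16 fell (median log2FC -0.23), among them Cox4i1 (log2FC -0.31, edgeR adjusted p = 0.0219) and Cox8a (log2FC -0.33, edgeR adjusted p = 0.0079). In complex V 10 of 18 fell (median log2FC -0.28), and Atp5f1b, the catalytic beta subunit (log2FC -0.35, edgeR adjusted p = 0.00372), and Atp5mc3, a subunit of the rotating ring (log2FC -0.32, edgeR adjusted p = 0.00708), were the most abundant of them. All of these were under the fold change minimum, and 8 of these 43 nuclear genes have a near-identical copy elsewhere. Among all tested genes, 9.42% fell.

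The complex I mRNAs of the same genome, as a list, had a median log2FC of -0.46, close to that of the 6 mRNAs (-0.44). Of the 7, 4 fell, against 9.42% of all tested genes. None was called changed (0 to 3 called lower with 1 library left out), against 4.17% of all tested genes called lower. The lowest was mt-Nd1 (5463 ± 1036.5 and 3710.3 ± 614.4 CPM, SD, n = 4 each; log2FC -0.56, edgeR adjusted p = 0.00207) and the highest mt-Nd4l, the shorter gene of the overlapping pair it forms with mt-Nd4 (log2FC -0.04, edgeR adjusted p = 0.889).

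Genes that make, process and translate these mRNAs were given by list. For comparison with the counts that follow, 4.17% of all tested genes were called lower and 10.3% higher, while 9.42% fell and 12.3% rose. For mitochondrial DNA replication and transcription 10 of 15 genes were tested, and none was called by edgeR, by DESeq2 or by limma-voom, with 0 at an unadjusted p under 0.05 in edgeR. The most abundant were Polg, the DNA polymerase (log2FC -0.28, SE 0.216), and Polrmt, the RNA polymerase (log2FC -0.16, SE 0.214), at mean counts of 34.2 and 28.5 per library. All 10 log2FC were negative, with a median of -0.34.

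In RNA processing, polyadenylation and decay, 4 of 18 tested genes were called lower and no gene was called higher (5 lower and 0 higher at an unadjusted p under 0.05; median log2FC -0.25). The lower count was 3 without young-adult replicate 2 or aged replicate 4, 2 without any other library, and 1 among genes with more than 5 counts in every library. Lrpprc, which binds and stabilises mitochondrial mRNAs, fell from 62.3 ± 12.4 CPM at 6m to 34.97 ± 12.4 CPM at 24m (mean ± SD over 4 mice; log2FC -0.76, edgeR adjusted p = 0.0106), and its partner Slirp had a log2FC of -0.11 (edgeR adjusted p = 0.691). Pnpt1, the mitochondrial RNA-degrading phosphorylase, fell with a log2FC of -1.96 (edgeR adjusted p = 0.00277) at a mean count of only 6.38 per library. Fastk, the most abundant of the list, had a log2FC of -0.28 (edgeR adjusted p = 0.0916). The other called genes, named after their values were seen, were Elac2, which cuts tRNA 3′ ends (log2FC -0.583), and Fastkd2 (log2FC -0.95).

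Of the translation genes, 3 of 9 tested were called lower: the elongation factors Tsfm (log2FC -0.60, edgeR adjusted p = 0.0194) and Gfm1 (log2FC -0.68, edgeR adjusted p = 0.0304), and, named after its value was seen, the initiation factor Mtif2 (log2FC -0.97). The median log2FC of the list was -0.53, below that of the 6 mRNAs. Without young-adult replicate 1, 3 or 4 or aged replicate 4 only 1 was called lower, and with library sizes alone or DESeq2 on the raw counts 0 were (5 lower and 0 higher in edgeR at an unadjusted p under 0.05). Tufm, the most abundant of them, fell by 0.53 on the log2 scale (edgeR adjusted p = 0.0117) and has a near-identical copy. Among 35 tested assembly factors of complexes III to V, 6 fell and 1, Uqcc6 of complex III assembly, was called changed (log2FC -0.74, mean count 20, with a near-identical copy). Of all tested genes, 9.42% fell and 4.17% were called lower, so 1 call among 35 genes is no more than that share. No factor was called lower without young-adult replicate 1, 3 or 4 or aged replicate 2, and 2 were without aged replicate 1. Coa3, an assembly factor that binds newly made mt-Co1 protein, fell (log2FC -0.35, edgeR adjusted p = 0.012), and Uqcc2 had a log2FC of -0.26 (edgeR adjusted p = 0.0717).

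The 18 markers of mitochondrial content had a median log2FC of -0.10. Of these, 3 rose and 1 fell, beside 12.3% and 9.42% of all tested genes. Their summed level was 5033 to 5224 CPM at 6m and 4803 to 5586 CPM at 24m, so it overlapped where that of the 6 mRNAs (74749.7 to 91980.4 and 54659 to 69857 CPM) did not. Slc25a3, the phosphate carrier (log2FC -0.16, edgeR adjusted p = 0.164), and Slc25a4, the adenine nucleotide carrier (log2FC 0.21, edgeR adjusted p = 0.168), were the most abundant. Mfn2, a mitochondrial fusion protein, was called higher (log2FC 0.88, edgeR adjusted p = 0.000494), and Hspd1, a chaperone with a near-identical copy, was called lower (log2FC -0.63, edgeR adjusted p = 0.00528), a call lost without young-adult replicate 3 or aged replicate 2 or 3. The others that rose, named after their values were seen, were Cs, the citrate synthase of the TCA cycle (log2FC 0.52, edgeR adjusted p = 0.0045), and Vdac1, an outer membrane channel (log2FC 0.26, edgeR adjusted p = 0.037).

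**Figure D5:**
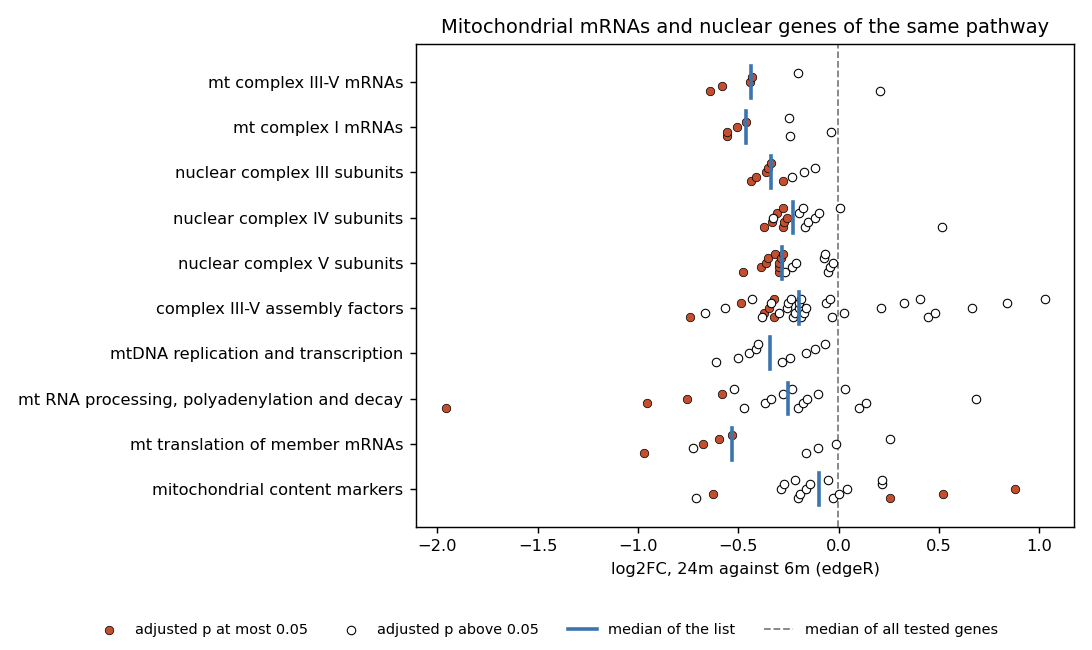
Each row is a gene list and each point 1 tested gene, placed on the x axis by its log2FC (24m against 6m, edgeR) and filled where its adjusted p was at most 0.05; the blue bars are list medians and the dashed line the median of all tested genes (-0.003). The medians of the mitochondrial mRNAs of complexes III to V (-0.44) and of complex I (-0.46) lie left of those of the nuclear subunits (-0.34, -0.23 and -0.28).

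Markers of several brain cell types also moved with age. The summed levels of 12 neuron markers (3165 to 3405 and 3835 to 4559 CPM), 10 oligodendrocyte markers (2146 to 2697 and 2930.1 to 3807 CPM) and 11 microglia markers (806.2 to 866.2 and 999.1 to 1271 CPM) were higher in every aged library, with 4 of 12, 2 of 10 and 2 of 9 tested genes called higher. Of all tested genes, 10.3% were called higher and 4.17% lower, and 11.1% were higher and 9.96% lower without overlap. The log2FC was positive for 10 of the 12 neuron markers and negative for 2, Tubb3 (-0.30, edgeR adjusted p = 0.0353) and Gad2 (-0.48, edgeR adjusted p = 0.243). The summed level of 9 endothelial markers, most of it from Bsg (998.3 and 741.6 CPM on average), was lower in every aged library (1103 to 1214 and 811.3 to 946.6 CPM), and 1 of the 5 tested was called lower. Of 8 tested astrocyte markers 3 were called higher and 1 lower, and all 5 blood markers were called lower with overlapping sums (6090.3 to 10032 and 3350.4 to 6283 CPM). Sums of the ependymal, choroid plexus and muscle markers overlapped, and no marker in the table was at 0 in all libraries. The part of these differences in the fall of the 6 mRNAs was not tested.

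The 5 genes outside the mitochondrial genome whose profiles over the 8 libraries were most like the mean profile of the 6 mRNAs were Slc45a1, Vps4a, Fam162a, Rpl23 and Psma1. Likeness was the root mean square difference of centred log2 CPM, which was 0.0764, 0.0975, 0.0977, 0.107 and 0.11 for these genes, beside a median of 0.284 over 2713 candidates with a mean count of at least 50. Their log2FC ran from -0.37 to -0.16, with edgeR adjusted p from 0.0579 to 0.459, and near-identical copies of them were not searched for. The 6 mRNAs themselves lay at 0.0851 (mt-Atp6), 0.108 (mt-Cytb), 0.118 (mt-Co3), 0.153 (mt-Co2), 0.171 (mt-Co1) and 0.29 (mt-Atp8) from their own mean profile, so mt-Atp8 lay about as far from it as the median candidate. The complex I mRNAs of the same genome lay at 0.0806 (mt-Nd5) to 0.23 (mt-Nd4l).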

How the data were processed

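The authors mapped the direct RNA reads to GRCm39 (annotation GRCm39.103) with minimap2 (2.24 in the submitters' processing notes) and counted them per gene with featureCounts, and the deposited values are raw counts per gene in each of 8 libraries. Settings for strand, reads over overlapping genes and reads that map to several places are not given in the sources used here. The quantile and row-wise median normalization of the study's methods came after these counts.

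Genes with a mean count over 5 (9375) were fitted with edgeR 4.0.16 (quasi-likelihood test, TMM, age as the only term; R 4.3.3), with Benjamini-Hochberg adjustment. DESeq2 1.42.0 and limma-voom (limma 3.58.1) were alternatives. Shares and ratios were compared by exact two-sided permutation tests over 70 assignments of the libraries. Ages came from the labels, and all count columns were used. For 22281 genes the ID matched a symbol in GENCODE. Nuclear copies were sought with BLAST+ 2.17.0. Same-numbered libraries of the 2 ages did not deviate together (correlations of -0.255 to 0.209), so the numbers were not taken as pairs.

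The 6 mRNAs and all lists were chosen with earlier results of these data known. Named were the 6 mRNAs, the highest and the lowest of complex I, in each nuclear list the 2 genes with the highest mean CPM and, of those called, the 2 with the smallest p, and the 5 genes of most similar profile. The pairwise ratios and the sum of mt-Atp8 and mt-Atp6 were added after values were seen. Each library was 1 mouse, so p-values cover the spread between mice and between their libraries together.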

Additional observations from a re-analysis of the deposited data

Results flagged for a closer look

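In each age, the levels, shares and ratios of the 6 mRNAs were examined for single libraries far from the rest (Dixon's test at 95%). Such a library was found in 2 of 62 groups, and about 3.1 are due to chance alone. In aged replicate 4, mt-Atp6 held 12.1% of the mitochondrial mRNA counts, while the other aged libraries lay at 10.9% each. In aged replicate 2, the count ratio of mt-Co2 to mt-Co3 was 0.389, above the 0.318 to 0.328 of the other aged libraries.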

How the results depend on the processing

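Each alternative changed 1 setting, except that DESeq2 brings its own scaling or the quantile normalization with it. With library sizes alone, which moved the median of all genes to 0.10, the log2FC of mt-Cytb was -0.33 (adjusted p = 0.0671 from edgeR), that of mt-Atp8 was 0.31 (adjusted p = 0.0465 from edgeR), 0 of the 6 mRNAs were called changed, and in the pathway lists 2 genes were called higher (1 as reported) and 2 lower (9 as reported). With DESeq2 on the raw counts, mt-Cytb was at -0.44 (adjusted p = 0.117) and 3 list genes were called lower; more than 5 counts in every library also left 3. With DESeq2 on quantile-normalized counts, mt-Co1 (2.61e-08) and mt-Co3 (2.68e-08) had no difference by construction, since they hold the same rank in every library, mt-Cytb was at -0.27 (adjusted p = 0.144), mt-Co2 at -0.26, mt-Atp6 at 0.15, mt-Atp8 at 0.44 (adjusted p = 0.00289), 0 of the 6 were called and 4 list genes were called lower. Limma-voom called 2 of the 6, and 4 passed without the fold change minimum. With mt-Atp8 and mt-Atp6 summed as 1 mRNA, the log2FC of mt-Atp8 was replaced by -0.0528. The share of the 6 mRNAs differed by -1.59 points among genes with a mean count over 5, and by -0.35 as log2 of their counts over nuclear counts (exact permutation p = 0.0571 for both). The causes of these moves were otherwise not tested.

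The replicate numbers did not pair the libraries, and with them as a replicate block 2 of the 6 mRNAs were called changed and the share differed by -1.59 points (exact p = 0.125, the smallest that 4 pairs can give).

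Leaving out each library in turn, the log2FC ran from -0.55 to -0.32 for mt-Cytb, -0.65 to -0.52 for mt-Co1, -0.74 to -0.54 for mt-Co2, -0.47 to -0.37 for mt-Co3, -0.29 to -0.11 for mt-Atp6 and 0.10 to 0.29 for mt-Atp8. Called were 0 to 2 of the 6 (0 without young-adult replicate 3 or aged replicate 1, and 2 without young-adult replicate 2 or 4 or aged replicate 2), and in the lists 1 to 2 higher (2 without young-adult replicate 1 or 2 or aged replicate 4) and 3 to 8 lower (3 without young-adult replicate 3, 4 without young-adult replicate 1 and 5 without aged replicate 3). The share of the 6 mRNAs ran from -1.88 to -1.21 points, with an exact permutation p of 0.0286 without young-adult replicate 4 and 0.0571 without any other library. The pool shares of mt-Cytb (-0.30 to 0.12 points) and mt-Co3 (-0.78 to 0.92 points) and the complex III ratio (-0.23 to 0.10 on the log2 scale) changed sign. Genes near the minimum mean count of 5, such as Pnpt1 (6.38 counts per library), rest on few reads.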

Other observations

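Another pair of overlapping genes of the mitochondrial genome is mt-Nd4l and mt-Nd4, which share 7 bases. It was looked at after the ratio of mt-Atp6 to mt-Atp8 had been seen and is given with no test. Not every overlapping pair of this genome was looked at. The counts of mt-Nd4 were 3.89, 3.73, 3.88 and 4.10 times those of mt-Nd4l at 6m and 2.87, 2.53, 2.61 and 2.91 times at 24m (means 3.90 ± 0.151 and 2.73 ± 0.189, SD, n = 4 each). Beside this, mt-Atp6 had 2.02 ± 0.157 times the counts of mt-Atp8 at 6m and 1.51 ± 0.0493 times at 24m. In both pairs the longer gene, which lies on the 3′ side, had fewer counts per count of the shorter one in every aged library than in any young-adult library. For mt-Nd5 and mt-Nd6, whose positions were not examined here, the counts were near equal in every library of both ages. At 6m they were 989 and 1055, 724 and 749, 1136 and 1149, and 738 and 726. At 24m they were 544 and 567, 1083 and 1121, 757 and 755, and 1528 and 1563. The part of read length and read assignment in these values was not tested.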
